A study of Mus musculus with 9 samples.

Results

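The genes described here are those of the AP-1 transcription factor family and its close relatives: the Fos genes *Fos*, *Fosb*, *Fosl1* and *Fosl2*, the Jun genes *Jun*, *Junb* and *Jund*, and *Atf3*, *Maff* and *Jdp2*. They were taken by gene symbol as members or relatives of the family, and all 10 were found among the 35275 genes of the expression table. RNA was sequenced from wild type C57Bl/6 mouse embryonic fibroblasts (MEFs, cells grown out of the embryo in culture). Of 9 libraries, 3 came from cells left in iso-osmolar medium (300 mOsm), 3 from cells brought to 500 mOsm with 200 mM sucrose and 3 from cells brought to 600 mOsm with 300 mM sucrose, each for 3 h. No genetic change or inhibitor was used in any of these groups. The labels do not say whether the libraries of a treatment came from separate cultures, so p-values measure the spread between these libraries, which may be technical.

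AP-1 is a dimer of proteins with a basic region that binds DNA and a leucine zipper that joins the partners. Fos proteins do not pair with each other and need a Jun partner, whereas Jun proteins can also pair among themselves. *Fos*, *Fosb*, *Jun*, *Junb* and *Atf3* are known as immediate early genes, which MAP kinases switch on within minutes of a growth factor or a stress without new protein synthesis. Fosl1 and Fosl2 lack the strong activation domain of Fos and last longer in the cell, while Atf3 and Jdp2 often repress, and Maff is a small Maf protein with no activation domain of its own.

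Library totals were 21716042 to 26740832 reads on genes, so the members, with 49 to 48407 reads in a library, were all counted above the filter on low values. Levels are given as FPKM (fragments per kilobase of gene, scaled to the reads on genes of the library). This allows genes of different length to be compared, as far as the gene lengths that the authors list hold. Of 16 fibroblast markers, 12 had a mean level above 1 FPKM in each treatment, among them *Col1a1*, *Vim* and *Thy1*, whereas *Fap* was listed at 0 in all libraries. The summed level of 8 epithelial markers was 0.104 to 0.376 FPKM at 300 mOsm, 1.19 to 1.49 at 500 mOsm and 0.169 to 0.357 at 600 mOsm. The sum of 7 endothelial markers was 0.896 to 0.975, 4.23 to 4.65 and 1.17 to 1.84 FPKM in that order, *Pecam1* was the marker above 1 FPKM, and *Krt5* and *Tie1* were at 0 in all libraries. Both sums moved with the members that were high at 500 mOsm, and their part in the results was not tested. The sum of 9 macrophage and leukocyte markers (15.6 to 28.5 FPKM) overlapped between the treatments, though *Cd14* among them fell at 500 mOsm (log2 -0.98, adjusted p = 6.41e-06) and at 600 mOsm (log2 -0.29, adjusted p = 0.0307) and *Lyz2*, whose libraries overlapped, gave 1.06 (adjusted p = 0.143) and 1.34 (adjusted p = 0.0552). That of 9 muscle and neural markers was 49.7 to 53.5 FPKM at 300 mOsm, 42.2 to 50.8 at 500 mOsm and 39.0 to 41.2 at 600 mOsm, with *Myog* at 0 in all libraries. In such bulk samples, more cells that express a gene and more RNA per cell cannot be told apart.

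At 500 mOsm, 9 of the 10 members differed from iso-osmolar cells: *Fos*, *Fosb*, *Atf3*, *Junb*, *Jun*, *Maff* and *Jdp2* rose, *Fosl1* and *Fosl2* fell, and *Jund* did not pass the test. At 600 mOsm this pattern was not seen: *Atf3* rose, *Fosb*, *Fosl1*, *Fosl2*, *Junb* and *Maff* fell, and *Fos*, *Jun*, *Jund* and *Jdp2* did not pass the test. Between the hyperosmotic media, 8 members were lower at 600 than at 500 mOsm and 0 were higher. Among all 13082 genes tested, 28.0% were called at 500 mOsm against iso-osmolar (13.2% higher and 14.8% lower), 35.1% at 600 mOsm against iso-osmolar (15.1% higher and 20.0% lower) and 29.1% at 600 against 500 mOsm (11.9% higher and 17.2% lower). The tests were edgeR's quasi-likelihood tests, adjusted over all genes tested with a threshold of 0.05, and each treatment's libraries enter 2 of the 3 comparisons.

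**Figure D1:**
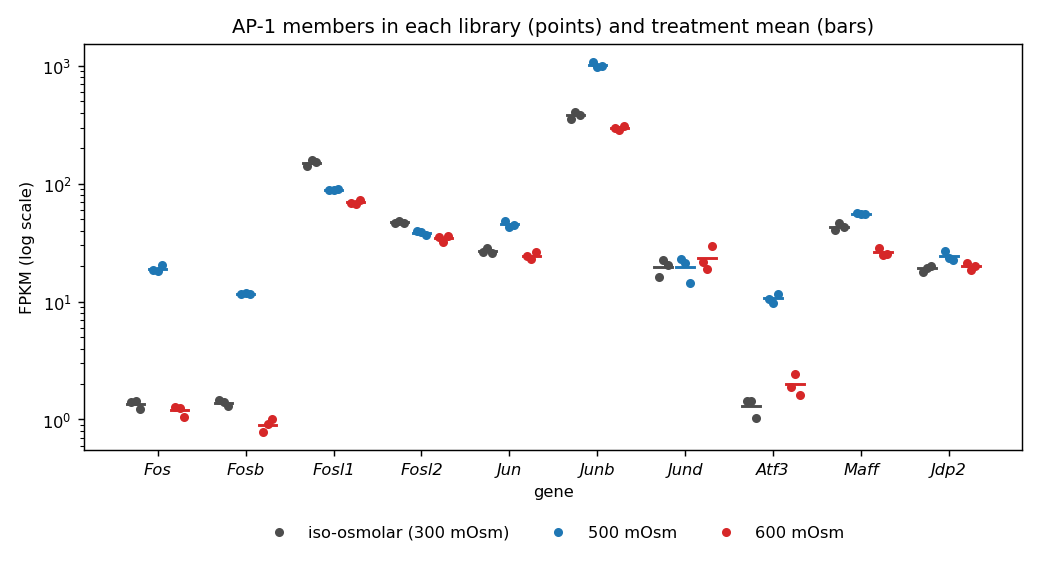
FPKM of each of the 10 genes (horizontal axis) on a log scale (vertical axis), with 1 point per library, 3 per treatment, and a bar at the treatment mean. At 500 mOsm, *Fos*, *Fosb* and *Atf3* stand at 9.74 to 20.5 FPKM, where the iso-osmolar libraries stand at 1.02 to 1.45 FPKM.

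*Fos* (chr12:85473890-85477273 of mm10, plus strand), the founding member and the partner that gives Fos-Jun dimers their strong activation, was nearly silent in iso-osmolar cells, at 1.40, 1.45 and 1.22 FPKM in the 3 libraries. It stood at 18.5, 18.0 and 20.5 FPKM at 500 mOsm. At 600 mOsm it was at 1.28, 1.24 and 1.05 FPKM. All libraries at 500 mOsm were thus far above all the others, and the ranges at 300 and 600 mOsm overlapped. The log2 fold change was 3.81 ± 0.10 (SE) at 500 mOsm, a 14.1-fold rise (adjusted p = 6.07e-11), and between 600 and 500 mOsm it was -3.98 ± 0.11 (adjusted p = 3.89e-11). Against iso-osmolar cells *Fos* at 600 mOsm gave -0.17 with a 95% interval of -0.45 to 0.12 (adjusted p = 0.381). In reads, *Fos* had 62 to 75 per iso-osmolar library, 950 to 1118 at 500 mOsm and 58 to 65 at 600 mOsm.

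*Fosb* (chr7:19302721-19310045, minus strand), a close relative of *Fos* that also gives the long-lived variant ΔFosB, started from the same low level. It was at 1.45, 1.40 and 1.31 FPKM in iso-osmolar cells, at 11.6, 11.8 and 11.6 FPKM at 500 mOsm and at 0.785, 0.916 and 1.003 FPKM at 600 mOsm. The 3 treatments did not overlap, with 500 mOsm highest and 600 mOsm lowest. *Fosb* rose 8.41-fold at 500 mOsm (log2 3.07 ± 0.09 SE, adjusted p = 1.42e-10) and fell at 600 mOsm against iso-osmolar (log2 -0.60 ± 0.11 SE, adjusted p = 0.00135).

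*Fosl1* (chr19:5447703-5455945, plus strand), which encodes Fra-1, was the most abundant Fos gene in all 9 libraries and went the other way. Its level was 141, 161 and 153 FPKM in iso-osmolar cells, 89.4, 88.2 and 90.0 FPKM at 500 mOsm and 68.5, 67.8 and 73.2 FPKM at 600 mOsm. The treatments did not overlap, and the level was lower at each higher osmolality. The log2 fold change was -0.76 ± 0.06 (SE) at 500 mOsm (adjusted p = 1.02e-06), -1.10 ± 0.06 at 600 mOsm (adjusted p = 5.92e-08) and -0.33 ± 0.06 between 600 and 500 mOsm (adjusted p = 0.00114). *Fosl1* shares 1163 exonic bases with *Ccdc85b* on the other strand, and whether the reads were counted by strand is not given in the sources used here. *Ccdc85b* had 1095 to 1823 reads a library and a log2 fold change of 0.22 at 500 mOsm (adjusted p = 0.0881) and -0.07 at 600 mOsm (adjusted p = 0.556).

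*Fosl2* (chr5:32136472-32157831, plus strand), which encodes Fra-2, fell less. Its libraries spanned 46.4 to 48.1 FPKM in iso-osmolar cells, 37.1 to 39.6 FPKM at 500 mOsm and 32.2 to 36.2 FPKM at 600 mOsm, so that both hyperosmotic groups lay below the iso-osmolar libraries. The log2 fold changes were -0.29 ± 0.06 (SE, adjusted p = 0.00239) and -0.43 ± 0.06 (adjusted p = 0.000142), the latter -0.24 with offsets for GC content and length (adjusted p = 0.00182). The difference between 600 and 500 mOsm, -0.14 with a 95% interval of -0.26 to -0.0086, did not pass the test (adjusted p = 0.103); the ranges lay apart in FPKM but overlapped once the libraries were scaled by TMM.

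Among the Jun genes, *Junb* (chr8:84976909-84978748, minus strand), whose protein pairs with Fos proteins and acts more weakly than Jun at many sites, was the most abundant member in every library. It stood at 354, 410 and 386 FPKM in iso-osmolar cells, at 1070, 984 and 992 FPKM at 500 mOsm and at 295, 284 and 309 FPKM at 600 mOsm. The 3 treatments did not overlap, and the order was that of *Fosb*. *Junb* rose 2.65-fold at 500 mOsm (log2 1.41 ± 0.07 SE, adjusted p = 9.34e-09) and fell at 600 mOsm (log2 -0.35 ± 0.06 SE, adjusted p = 0.00112). It shares 173 exonic bases with *Prdx2* on the other strand, so a share of its reads is uncertain; *Prdx2* had 10791 to 16091 reads a library and log2 fold changes of 0.01 at 500 mOsm (adjusted p = 0.920) and 0.24 at 600 mOsm (adjusted p = 0.00388).

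*Jun* (chr4:95049034-95052222, minus strand), which encodes the main target of the kinase JNK, was at 26.4, 28.3 and 26.1 FPKM in iso-osmolar cells. It was at 48.1, 43.3 and 44.6 FPKM at 500 mOsm and at 24.5, 22.9 and 26.3 FPKM at 600 mOsm. Like *Fos*, it was higher in all libraries at 500 mOsm and overlapped between 300 and 600 mOsm. The rise was 1.69-fold (log2 0.75 ± 0.07 SE, adjusted p = 3.52e-06), smaller than that of *Junb*, and at 600 mOsm the log2 fold change was -0.11 with a 95% interval of -0.26 to 0.04 (adjusted p = 0.231). The antisense gene *Junos*, with 232 shared exonic bases, had 48 to 76 reads a library against 1613 to 3733 for *Jun* and was called in 0 of the 3 comparisons.

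*Jund* (chr8:70697739-70700616, plus strand), a Jun gene known for steady expression in resting cells, did not pass the test in any of the 3 comparisons. It was at 16.1, 22.4 and 20.5 FPKM in iso-osmolar cells, at 23.2, 21.1 and 14.4 FPKM at 500 mOsm and at 21.7, 18.9 and 29.9 FPKM at 600 mOsm. All 3 treatments overlapped, and the lowest value at 500 mOsm and the highest at 600 mOsm were each set by replicate 3. The log2 fold change was -0.01 (95% interval -0.43 to 0.42) at 500 mOsm, 0.28 (-0.15 to 0.70) at 600 mOsm and 0.29 (-0.14 to 0.71) between them, with adjusted p of 0.985, 0.295 and 0.307. Without replicate 3 at 600 mOsm the last 2 values were 0.05 and 0.06. The longest transcript of *Jund* had a GC content of 67.1%, the highest among those of the members. That transcript has 1668 bases in the annotation GENCODE M21, whereas the authors list 2878 bases for *Jund*. With the shorter length the FPKM of *Jund* would be higher. The antisense gene *Gm11175*, which shares 877 exonic bases with it, was listed at 0 reads in all libraries.

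*Atf3* (chr1:191170296-191183340, minus strand), a stress-induced factor that pairs with Jun proteins, was the member that rose in both hyperosmotic media. Its level was 1.44, 1.43 and 1.02 FPKM in iso-osmolar cells, 10.5, 9.74 and 11.7 FPKM at 500 mOsm and 1.90, 2.44 and 1.61 FPKM at 600 mOsm. The 3 treatments did not overlap, and the levels at 600 mOsm were much closer to the iso-osmolar ones. *Atf3* rose 8.21-fold at 500 mOsm (log2 3.04 ± 0.15 SE, adjusted p = 2.25e-08) and 1.54-fold at 600 mOsm (log2 0.62 ± 0.18 SE, adjusted p = 0.0158), and between 600 and 500 mOsm the log2 fold change was -2.41 ± 0.15 (adjusted p = 1.19e-07). The call at 600 mOsm was lost without iso-osmolar replicate 3 (log2 0.47, adjusted p = 0.0693) or without replicate 2 at 600 mOsm (log2 0.47, adjusted p = 0.0592).

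*Maff* (chr15:79347541-79359072, plus strand) was at 40.5, 46.1 and 43.2 FPKM in iso-osmolar cells, at 56.0, 55.0 and 55.2 FPKM at 500 mOsm and at 28.7, 24.7 and 25.4 FPKM at 600 mOsm. The groups did not overlap and had the order of *Fosb* and *Junb*. The change was 0.36 ± 0.07 (SE) on the log2 scale at 500 mOsm (adjusted p = 0.00147) and -0.70 ± 0.07 at 600 mOsm (adjusted p = 9.24e-06). *Jdp2* (chr12:85599105-85639878, plus strand), a partner of Jun proteins that recruits histone deacetylases, spanned 17.9 to 20.2 FPKM in iso-osmolar cells, 22.7 to 26.8 FPKM at 500 mOsm and 18.6 to 21.4 FPKM at 600 mOsm. It rose at 500 mOsm (log2 0.35 ± 0.09 SE, adjusted p = 0.00776), and at 600 mOsm the log2 fold change was 0.09 with a 95% interval of -0.10 to 0.28 (adjusted p = 0.458). Its lower level at 600 than at 500 mOsm (log2 -0.26 ± 0.09 SE, adjusted p = 0.0357) was a weak call, lost without replicate 1 or 2 at 500 mOsm (log2 -0.19 and -0.27, adjusted p = 0.146 and 0.0545) and without replicate 2 or 3 at 600 mOsm (log2 -0.20 and -0.28, adjusted p = 0.121 and 0.0650).

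**Figure D2:**
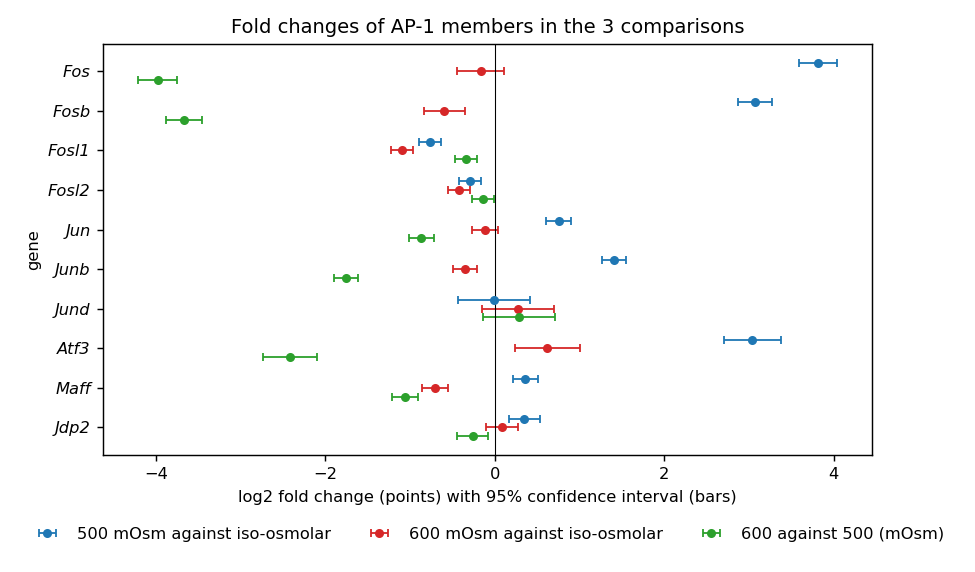
Log2 fold change (horizontal axis) of each of the 10 genes (vertical axis) with its 95% confidence interval, in 3 colours for the 3 comparisons. *Fos*, *Fosb* and *Atf3* lie above 3 at 500 mOsm against iso-osmolar, whereas at 600 mOsm against iso-osmolar the members lie between -1.10 and 0.62.

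In the direct comparison of the hyperosmotic media, the lower levels at 600 mOsm had log2 fold changes of -3.67 for *Fosb*, -1.76 for *Junb*, -1.06 for *Maff* and -0.87 for *Jun*, beside the values of *Fos* and *Atf3* above. *Fosb*, *Junb* and *Maff* were called higher than iso-osmolar at 500 mOsm and lower than iso-osmolar at 600 mOsm. The median log2 fold change of the members was 0.56 at 500 mOsm, -0.26 at 600 mOsm and -0.96 between 600 and 500 mOsm, where the median of all genes tested was 0.01 in each. Library ranges on the TMM scale did not overlap for 9, 6 and 8 members in the 3 comparisons, against 40.9%, 48.4% and 41.5% of all genes tested. Ranked among the 13082 genes at 500 mOsm against iso-osmolar, *Fos* was number 220 from the highest, *Fosb* number 286, *Atf3* number 292, *Junb* number 591 and *Jun* number 1009. At 600 against 500 mOsm, *Fos* was number 83 and *Fosb* number 102 from the lowest. With a log2 fold change of at least 1 also required, 4, 1 and 5 members were called: *Fos*, *Fosb*, *Atf3* and *Junb* at 500 mOsm, *Fosl1* at 600 mOsm, and *Maff* besides those 4 between 600 and 500 mOsm.

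**Figure D3:**
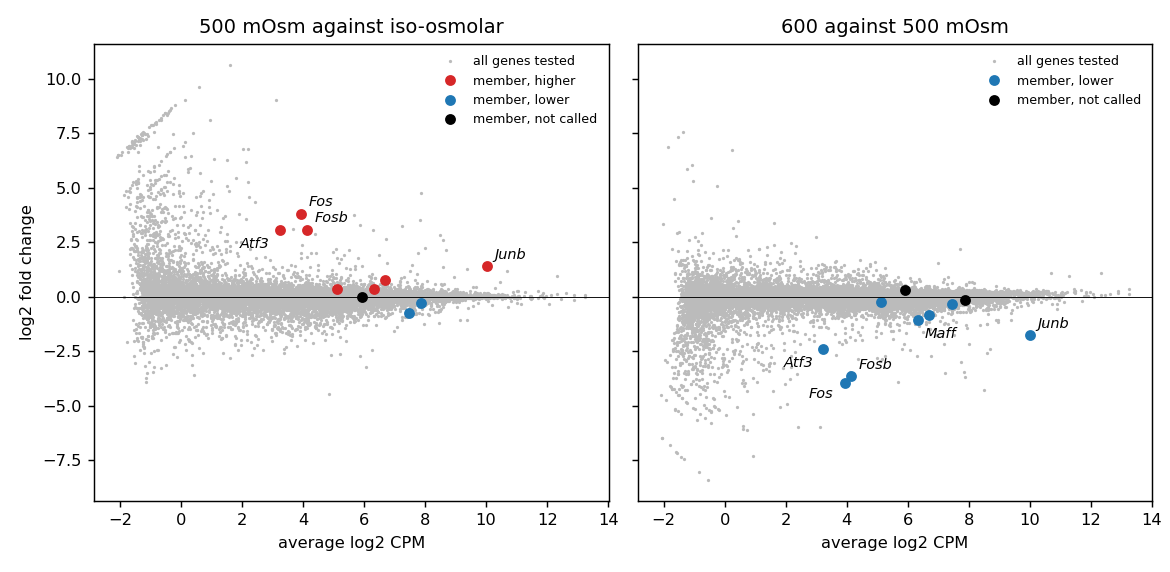
Log2 fold change (vertical axis) against average log2 CPM (horizontal axis) for all 13082 genes tested (grey) and the 10 members (large points, red where called higher, blue where called lower, black where not called), at 500 mOsm against iso-osmolar and at 600 against 500 mOsm. The members with a change of at least 1 are named, and *Junb*, at a log2 fold change of 1.41 in the left panel and -1.76 in the right panel, is the most abundant of them.

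The makeup of the Fos and Jun pools was followed as each gene's share of the summed FPKM of its family, a quantity that no scaling between libraries changes. In iso-osmolar cells *Fosl1* held 75.2% and *Fosl2* 23.4% of the Fos family level, and *Fos* and *Fosb* together held 1.36% ± 0.124 (SD, n = 3). At 500 mOsm the share of *Fos* and *Fosb* was 19.4% ± 0.671, with the libraries between 18.9% and 20.1%, and that of *Fosl1* was 56.3%. At 600 mOsm *Fos* and *Fosb* held 1.97% ± 0.136, between 1.84% and 2.11%, just above the iso-osmolar range of 1.25% to 1.50%. Transcripts of *Fos* and *Fosb* were thus a sizeable part of the Fos family at 500 mOsm and a small part in the other media, and *Fosl1* held the largest share in each. Counts per gene do not separate the ΔFosB variant from the other transcripts of *Fosb*. The summed Fos family level was 201 ± 10.7 FPKM (SD, n = 3) in iso-osmolar cells, 158 ± 1.41 at 500 mOsm and 106 ± 4.71 at 600 mOsm. *Fosl1* has a listed length of 1707 bases and shares 1163 exonic bases with *Ccdc85b* on the other strand. Whether reads were counted by strand is not given, so the Fos shares and sums, and the ratios to Jun below, are uncertain to that extent.

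The Jun family was mostly *Junb* in each medium, with 89.2% of the summed level in iso-osmolar cells, 94.0% at 500 mOsm and 86.1% at 600 mOsm. *Jun* held 6.28%, 4.20% and 7.13% and *Jund* 4.56%, 1.81% and 6.78% in that order. These shares rest on the listed length of *Jund*, 2878 bases, where its longest GENCODE M21 transcript has 1668. With the shorter length the share of *Jund* and the Jun sums and ratios would be higher. The summed Jun family level was 430 ± 32.2 FPKM in iso-osmolar cells, 1080 ± 52.8 at 500 mOsm and 344 ± 19.6 at 600 mOsm. The ratio of summed Jun to summed Fos level was 2.09 to 2.18 in iso-osmolar libraries, 6.61 to 7.18 at 500 mOsm and 3.19 to 3.27 at 600 mOsm, so the ratio was above the iso-osmolar range in both hyperosmotic media. Against iso-osmolar cells, the Jun sum was higher and the Fos sum lower at 500 mOsm, whereas at 600 mOsm both sums were lower. These are transcript levels, and protein or dimers were not measured in these libraries.

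**Figure D4:**
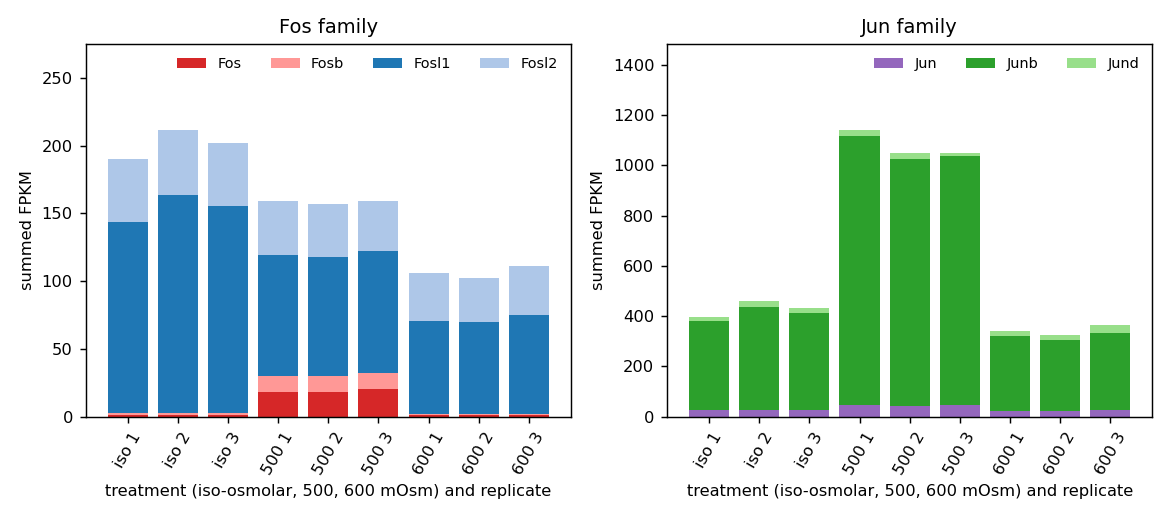
Summed FPKM (vertical axis) of the 4 Fos genes (left) and the 3 Jun genes (right) in each of the 9 libraries (horizontal axis), with each bar split by gene. *Fos* and *Fosb* are visible as a segment of 18.9% to 20.1% of the Fos bars at 500 mOsm, and *Junb* fills most of every Jun bar.

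By mean FPKM the order in iso-osmolar cells was *Junb*, *Fosl1*, *Fosl2*, *Maff*, *Jun*, *Jund*, *Jdp2*, *Fosb*, *Fos* and *Atf3*. The neighbours *Jund* and *Jdp2* overlapped, as did *Fosb* with *Fos* and *Fos* with *Atf3*. At 500 mOsm the order was *Junb*, *Fosl1*, *Maff*, *Jun*, *Fosl2*, *Jdp2*, *Jund*, *Fos*, *Fosb* and *Atf3*, with overlap between *Jdp2* and *Jund*, *Jund* and *Fos*, and *Fosb* and *Atf3*. At 600 mOsm it was *Junb*, *Fosl1*, *Fosl2*, *Maff*, *Jun*, *Jund*, *Jdp2*, *Atf3*, *Fos* and *Fosb*, and the neighbours from *Maff* to *Jdp2* overlapped. *Fos*, *Fosb* and *Atf3* had the 3 lowest means in each medium, also at 500 mOsm, where they were highest. The place of *Jund* in these orders depends on the gene length listed for it.

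The sequences before the start of the 5 immediate early members are shown because Fos, Jun and Atf proteins, and their relative Creb, bind short sites of known letters in such promoters. Each is the 250 bases before the RefSeq start on build GRCm38.p6, written 5′ to 3′ on the gene's strand: *Fos* chr12:85473640-85473889 (plus), *Fosb* chr7:19310046-19310295 (minus), *Atf3* chr1:191183334-191183583 (minus), *Junb* chr8:84978749-84978998 (minus) and *Jun* chr4:95052223-95052472 (minus). Capitals mark TGACG, the core of the cAMP response element, read on either strand, and TGACATCA, the site described in the *Jun* promoter for Jun and Atf proteins.
Fos: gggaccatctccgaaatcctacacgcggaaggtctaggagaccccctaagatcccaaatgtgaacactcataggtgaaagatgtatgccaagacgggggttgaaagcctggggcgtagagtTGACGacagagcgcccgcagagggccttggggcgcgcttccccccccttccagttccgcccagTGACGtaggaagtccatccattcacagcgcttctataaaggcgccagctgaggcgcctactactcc
Fosb: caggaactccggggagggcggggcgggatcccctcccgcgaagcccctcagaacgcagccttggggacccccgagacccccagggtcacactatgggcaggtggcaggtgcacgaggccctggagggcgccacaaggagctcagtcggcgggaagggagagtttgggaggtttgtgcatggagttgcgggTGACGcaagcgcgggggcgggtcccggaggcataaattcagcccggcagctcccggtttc
Atf3: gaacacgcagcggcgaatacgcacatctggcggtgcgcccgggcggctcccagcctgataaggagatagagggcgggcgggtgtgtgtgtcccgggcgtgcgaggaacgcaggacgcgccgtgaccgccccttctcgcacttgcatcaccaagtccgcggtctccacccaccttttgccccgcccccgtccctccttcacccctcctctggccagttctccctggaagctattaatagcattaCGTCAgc
Junb: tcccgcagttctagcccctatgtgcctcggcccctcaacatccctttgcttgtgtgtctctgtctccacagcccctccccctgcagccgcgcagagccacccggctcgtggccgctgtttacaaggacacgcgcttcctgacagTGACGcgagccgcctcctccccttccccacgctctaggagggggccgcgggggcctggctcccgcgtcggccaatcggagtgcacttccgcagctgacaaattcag
Jun: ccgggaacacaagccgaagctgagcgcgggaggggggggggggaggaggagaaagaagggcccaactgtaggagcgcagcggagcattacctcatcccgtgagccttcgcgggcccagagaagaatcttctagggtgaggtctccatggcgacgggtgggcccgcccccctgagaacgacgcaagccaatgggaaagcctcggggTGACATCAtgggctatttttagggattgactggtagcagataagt

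TGACG lay at -129 to -125 and at -66 to -62 from the start of *Fos*, at -60 to -56 from that of *Fosb*, at -106 to -102 from that of *Junb* and, on the minus strand, at -7 to -3 from that of *Atf3*. TGACATCA lay at -45 to -38 from the start of *Jun*. Of the 7 members with 1 window, the 4 that hold TGACG are *Fos*, *Fosb*, *Atf3* and *Junb*, while the windows of *Fosl2* and *Jund* hold none of the motifs searched. Starts differ between annotations. GENCODE M21 starts *Jund* at 70698949, downstream of its window, which ends at 70697738. It starts *Atf3* at 191218039, upstream of its window. The *Atf3* match also lies inside the gene as the authors list it, up to 191183340. These 2 windows may thus not be the promoters used. TGACG was present in 17.8% of the 32851 RefSeq windows of this length and TGACATCA in 2.93%. *Maff* and *Jdp2* have 3 windows each. A window of *Maff* holds the full element TGACGTCA, which contains TGACG on both strands, at -29 to -22, another holds TGACATCA, and 1 window of *Jdp2* holds TGACG; TGACGTCA was present in 1.55% of all windows. The AP-1 element, searched as TGANTCA with any base at N (6.75% of all windows), and the CArG box, the site of serum response factor (1.47%), were searched on both strands. Neither was found in the 250 bases before any of the 9 members with a window. Sites farther upstream were not searched, so the promoters may still hold them. These matches of letters are a description and do not show binding.

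The genes whose levels most resembled each member were named by Pearson's r of log2 CPM over the 9 libraries, given as a description since all libraries share the same 3 treatments. For *Fos* these were *Gem* (r = 0.998), *Iqsec3* (0.998, listed at 0 FPKM in iso-osmolar and 600 mOsm libraries and at a mean of 0.0562 FPKM at 500 mOsm) and *Ccl2* (0.998). *Gem* encodes a small GTP-binding protein and went from a mean of 4.98 FPKM in iso-osmolar cells to 66.4 at 500 mOsm and 4.29 at 600 mOsm. For *Fosb* they were *Id1* (0.995), *Gadd45a* (0.994) and *Egr1* (0.994), for *Junb* *Epha2* (0.999), *Gadd45a* (0.998) and *Arc* (0.996), and for *Jun* *Pvrl4* (0.995), *Junb* itself (0.990) and *Prnp* (0.989). *Pvrl4* was very low, with means of 0.0192, 0.169 and 0.0107 FPKM at 300, 500 and 600 mOsm. *Gadd45a*, a growth arrest and DNA damage gene near *Fosb* and *Junb* alike, had means of 2.56, 8.80 and 1.91 FPKM at 300, 500 and 600 mOsm. *Atf3* was most like *Pax8* (0.992), *Wsb1* (0.992) and *Mroh2a* (0.991), and *Maff* like *Dlg5* (0.995), *Gja4* (0.990) and *Zfp217* (0.987). *Fosl1*, which fell, was most like *Gm22* (0.992), *Pmepa1* (0.991) and *D8Ertd82e* (0.990), and *Fosl2* like *Chst2* (0.984), *Dab2ip* (0.984) and *Mtcl1* (0.983). The nearest genes of *Jund* (*2310011J03Rik*, 0.967) and *Jdp2* (*Man2a2*, 0.963) were the least alike.

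Other genes of the pathway were followed from 4 lists. Of 17 tested factors that act on the *Fos* and *Jun* promoters, 1 rose and 6 fell at 500 mOsm, 0 rose and 14 fell at 600 mOsm, and 9 were lower at 600 than at 500 mOsm with 0 higher. The median log2 fold change was -0.13, -0.48 and -0.26 in the 3 comparisons. Over all genes tested, 28.0%, 35.1% and 29.1% were called in that order, 14.8%, 20.0% and 17.2% as lower, with a median of 0.01 in each. *Elk3*, a ternary complex factor that sits with serum response factor on the *Fos* promoter, fell by 0.53 on the log2 scale at 500 mOsm (adjusted p = 1.79e-06) and by 1.12 at 600 mOsm (adjusted p = 5.19e-09). Its levels were 26.2 ± 0.333, 18.1 ± 0.442 and 11.9 ± 0.382 FPKM (SD, n = 3) at 300, 500 and 600 mOsm, lower at each step. The coactivators *Ep300* and *Crebbp* fell at 600 mOsm (log2 -0.79, adjusted p = 5.93e-07, for the former and -0.87, adjusted p = 4.28e-06, for the latter). *Elk4* (-0.58, adjusted p = 0.000375) and *Sp1* (-0.53, adjusted p = 0.000663) fell at 500 mOsm. Mean FPKM at 300, 500 and 600 mOsm was 9.40, 6.27 and 5.48 for *Elk4* and 10.5, 7.26 and 7.46 for *Sp1*. The means of both at 600 mOsm were thus also below the iso-osmolar ones. *Mef2d* was lower at 600 than at 500 mOsm (-0.57, adjusted p = 1.38e-06).

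Of 37 tested genes of the MAP kinase cascades that lead to AP-1, 1 was higher and 4 lower at 500 mOsm, 2 higher and 9 lower at 600 mOsm, and 1 higher and 6 lower at 600 than at 500 mOsm, with medians of -0.01, -0.11 and -0.05. The share called was below that of all genes tested in each comparison (28.0%, 35.1% and 29.1%). *Map2k3*, a kinase that activates p38, fell at each step, from 223 ± 1.75 FPKM (SD, n = 3) to 188 ± 4.55 at 500 mOsm (log2 -0.24, adjusted p = 0.000528) and 143 ± 4.78 at 600 mOsm (log2 -0.62, adjusted p = 2.47e-07). The JNK scaffold *Mapk8ip3* fell in both media (log2 -0.99, adjusted p = 5.60e-07, and -0.97, adjusted p = 8.14e-07), and *Map3k1*, a kinase upstream of JNK, fell at 500 mOsm (log2 -1.12, adjusted p = 0.000209) from a level of 0.607 FPKM. *Rps6ka5* rose at 500 mOsm (log2 1.03, adjusted p = 0.0201) at a level below 1 FPKM. *Mapk14*, which encodes p38α, was lower at 600 than at 500 mOsm (log2 -0.25, adjusted p = 0.00304). These are levels of transcripts, and the activity of the kinases was not measured in these libraries.

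Among 34 tested bZIP genes outside the family, several of which encode partners of the members, 4 were higher and 8 lower at 500 mOsm, 4 higher and 13 lower at 600 mOsm, and 4 higher and 10 lower at 600 than at 500 mOsm, with medians of -0.02, -0.13 and -0.14. Of all genes tested, 28.0%, 35.1% and 29.1% were called in the same comparisons. *Maf* rose at 500 mOsm from 2.05 ± 0.0487 to 5.52 ± 0.381 FPKM (log2 1.43, adjusted p = 3.78e-07). It also rose at 600 mOsm, to 3.03 ± 0.417 FPKM (log2 0.58, adjusted p = 0.000869). *Nfe2l3*, whose protein pairs with small Maf proteins, rose at 500 mOsm from 0.177 to 1.33 FPKM (log2 2.89, adjusted p = 7.31e-06) and was at 0.0844 FPKM at 600 mOsm. *Atf4* rose by a small step at 500 mOsm (log2 0.24, adjusted p = 0.00143), and *Ddit3*, which encodes the stress factor CHOP, rose at 600 mOsm (log2 0.70, adjusted p = 0.000253). *Xbp1*, a factor of the unfolded protein response, fell in both media (log2 -1.26, adjusted p = 2.76e-07, and -1.13, adjusted p = 7.68e-07), and *Bach1* (log2 -1.50, adjusted p = 2.51e-06) and *Nfe2l2* (log2 -0.70, adjusted p = 2.04e-05) fell at 500 mOsm.

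Of 28 tested textbook target genes of AP-1, 6 were higher and 13 lower at 500 mOsm, 3 higher and 16 lower at 600 mOsm, and 4 higher and 10 lower at 600 than at 500 mOsm, with medians of -0.15, -0.34 and -0.01. The shares over all genes tested were 28.0%, 35.1% and 29.1% in that order. The chemokine gene *Ccl2*, also among those nearest to *Fos*, rose at 500 mOsm from 8.83 ± 0.771 to 34.8 ± 2.19 FPKM (log2 1.98, adjusted p = 5.76e-09) and was at 8.58 ± 0.411 FPKM at 600 mOsm. *Hbegf*, a ligand of the EGF receptor, rose at 500 mOsm (log2 0.68, adjusted p = 4.37e-07) and was lower at 600 than at 500 mOsm (log2 -1.49, adjusted p = 4.45e-10), and *Areg*, another such ligand, rose from 0.0241 to 0.986 FPKM (adjusted p = 1.82e-05). The cytokine gene *Lif* fell in both media (log2 -2.73 at 500 mOsm, adjusted p = 8.57e-11, and -2.48 at 600 mOsm, adjusted p = 4.54e-10). *Vegfa*, the angiogenic growth factor, was at 40.1 ± 2.01, 23.2 ± 0.303 and 9.06 ± 0.561 FPKM at 300, 500 and 600 mOsm and fell in each comparison. *Sparc* (log2 0.34, adjusted p = 7.99e-05) and *Col1a2* (log2 0.26, adjusted p = 0.000538) were among the 3 genes of this list that rose at 600 mOsm.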

How the data were processed

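Per the labels, mRNA was selected with poly-T beads and sequenced as paired reads of 150 bases. The submitters' processing notes name CASAVA 1.8 and STAR, reads were aligned to mm10, and the counting tool is not given in the sources used here. The authors deposited raw read counts per gene for every library, together with FPKM values. The gene length in bases that the authors list beside them returns the FPKM from the counts. Deposited fold changes and p-values of the authors' own comparisons were not used.

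TMM factors and the quasi-likelihood test of edgeR 4.0.16 (R 4.3.3) were applied to these counts, with all 9 libraries in a fit by treatment. After filterByExpr, 13082 genes were tested. Benjamini-Hochberg adjustment ran over all of them, and calls were made under an adjusted p of 0.05. The SE is the fold change divided by the root of F. Groups were taken from the sample titles. Fits were tested on simulated data.

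The members and lists were chosen with earlier results of these data known. Named genes are the members, the 3 genes most like each, and up to 3 per list and direction with the smallest p. A few genes that this rule names are not reported here. Overlaps were read from GENCODE M21 and sequence shared over at least 100 bases at 95% identity was searched with blastn 2.17.0, which found the antisense partners only. Promoters are from RefSeq and covered 9 of 10 members. Replicate numbers were not treated as pairs in the main fit. Alternatives were RLE factors or library size alone, other filters, DESeq2 1.42.0, limma 3.58.1 on log2 FPKM with 1 or 0.1 added, fits of 2 treatments, a replicate block, stricter thresholds and each library left out. Offsets for GC content and length were chosen after seeing the data.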

Additional observations from a re-analysis of the deposited data

Results flagged for a closer look

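*Fosb*, *Junb* and *Maff* stood out because both hyperosmotic media moved them past the threshold in opposite directions, higher at 500 mOsm and lower at 600 mOsm than in iso-osmolar cells. The difference between these effects, the log2 fold change of 600 against 500 mOsm, was -3.67 for *Fosb*, -1.76 for *Junb* and -1.06 for *Maff*. It is given as a description, with no p, because the genes were picked by their opposite calls in the same edgeR fit, which fixes the direction of the difference.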

How the results depend on the processing

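Of 570 log2 fold changes of members under the alternatives, 550 kept their direction and their side of the threshold. Requiring a log2 fold change of at least 1 left 4, 1 and 5 members at 500 mOsm against iso-osmolar, 600 mOsm against iso-osmolar and 600 against 500 mOsm, and 13, 12 and 10 calls over the 4 lists. Without each library in turn, 9 to 9, 5 to 6 and 7 to 8 members and 40 to 46, 52 to 61 and 37 to 45 list calls were made. Over all genes tested, that fold limit left 711 higher and 411 lower, 316 and 426, and 206 and 651 in the same order, of 1728 and 1931, 1977 and 2617, and 1560 and 2250, and an adjusted p under 0.01 left 995 and 1851 at 600 mOsm and 790 and 1562 between 600 and 500 mOsm. At 500 mOsm an adjusted p under 0.01 left 1129 and 1337. Higher calls over the lists, 9 at 600 mOsm and 9 between 600 and 500 mOsm, were 14 and 19 with GC content and length offsets, and 16 at 600 mOsm with no filter on low counts. Those over all genes tested, 1977 and 1560 in the main fit, were 2411 and 1964 with these offsets. With no filter they were 2351 at 600 mOsm, of 23419 genes. The 7 reversals were of values that did not pass the test. *Jund* at 500 mOsm, at -0.01, was 0.0062 with at least 10 counts in every library, 0.00095 with the replicate block, 0.10 and 0.02 without iso-osmolar replicates 2 and 3, and ranged from -0.14 to 0.18 over the libraries left out, at 0.18 without replicate 3 at 500 mOsm. With GC content and length offsets, *Fosl2* at 600 against 500 mOsm was 0.026 and *Jdp2* at 600 mOsm was -0.0080, and the called fall of *Fosl2* at 600 mOsm, -0.43, was -0.24. With limma on log2 FPKM with 1 added, the calls at 600 mOsm of *Fosb* and *Atf3*, at -0.60 and 0.62, were -0.33 and 0.37, since the added 1 shrinks changes of low genes. *Jund* was called at 600 mOsm (adjusted p = 0.00110) and at 600 against 500 mOsm (adjusted p = 0.000337) with no filter on low counts, but these values, 0.28 and 0.29 with the filter, were 0.05 and 0.06 without replicate 3 at 600 mOsm; *Fosl2* was called at 600 against 500 mOsm with library size alone (adjusted p = 0.0380), with limma on log2 FPKM (0.0441 and 0.0445) and without replicate 3 at 600 mOsm (0.0461). The causes were not tested. Replicate numbers are shared between treatments, but same-numbered libraries did not deviate together on average (mean r = -0.20 over 9 pairs, from -0.54 to 0.46). The mean of the 18 other pairs, 0.10, is no separate comparison. Deviations were taken from each treatment's own mean, which ties the 2 values to each other. With the replicate block, 9, 6 and 7 members were called, and the call lost was *Jdp2* at 600 against 500 mOsm (adjusted p = 0.0699). *Fos*, *Fosb* and *Atf3* had 49 to 129 reads in the iso-osmolar libraries, which limits the precision of their levels there.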
